A study of Mus musculus with 58 samples.

Results

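SAFB, scaffold attachment factor B, and its close paralog SAFB2 are nuclear proteins that bind both DNA and RNA. Each carries a SAP domain, a fold that recognises the AT-rich scaffold or matrix attachment regions of chromatin, together with an RNA recognition motif, and both have been linked to transcription and RNA processing. hnRNPU, known also as scaffold attachment factor A, is another SAP domain protein of the nuclear matrix. PSPC1 is a paraspeckle protein, and CIRH1A, UTP3 and UTP6 belong to the machinery that processes ribosomal RNA precursors in the nucleolus. The sites described here are regions of the mouse genome at which chromatin immunoprecipitation and sequencing (ChIP-seq) gave a peak for SAFB and a peak for SAFB2, and no peak for any of the other proteins.

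The peaks of 9 deposited lists, 156215 in all, were joined into 67384 regions wherever they shared at least 1 bp. The sites were chosen by the peak calls themselves: a region was kept if it held a SAFB peak and a SAFB2 peak and none from the other 7 lists. This left 1962 regions, which were 2.91% of all regions and 53.7% of the 3655 regions with a peak of both proteins. Both shares follow from the selection and are a description. All comparisons below are likewise descriptions, because the peak calls that selected the sites also gave their widths, scores and positions.

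Each list came from mouse embryonic stem cells without further treatment. SAFB, SAFB2 and hnRNPU were overexpressed with a FLAG-biotin (FB) tag in J1 cells carrying the biotin ligase BirA, strain 129/Ola per the labels. Their chromatin was fixed with 2 mM of the protein crosslinker DSP for 30 min and with 1% formaldehyde for 10 min, and was partly cut with DNase I at 12 U/ml. It was then sonicated to 200 to 500 bp and purified on 5 µg of FLAG antibody and on streptavidin beads. CIRH1A, UTP3 and UTP6 were overexpressed in the same BirA J1 background, fixed with 3% formaldehyde and purified with the FLAG antibody. PSPC1 was overexpressed in BirA J1 cells fixed with 1% formaldehyde, and was also tagged at its own gene (AID-FB knock-in) in cells made from the CJ9 line and fixed with 3% formaldehyde. The knock-in had 2 libraries and every other protein 1, so no spread between replicates of SAFB or SAFB2 can be given. SAFB and SAFB2 shared their fixation and purification with hnRNPU but not with the other lists, and the part of this difference in which lists share a region was not tested. Peak lists hold no expression values, so the stem cell identity could not be checked against marker genes.

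The SAFB list held 10632 peaks and the SAFB2 list 6670. The sites took up 1982 SAFB peaks, or 18.6% of that list (95% Wilson interval 17.9 to 19.4), and 2007 SAFB2 peaks, or 30.1% (29.0 to 31.2). SAFB alone, with no other list, marked 3704 regions, and SAFB2 alone marked 1220. SAFB and SAFB2 together with at least 1 other list marked 1693 regions. These 3 classes serve as the comparison throughout. All intervals on shares and medians cover counting error only, since regions of 1 library are not replicates.

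Among the 1693 regions that both paralogs shared with other proteins, 273 held only 1 further list. UTP6 was that list at 166 of them and hnRNPU at 37. CIRH1A, UTP3, overexpressed PSPC1 and the knock-in libraries each accounted for 9 to 18. UTP6 had the longest list, 40217 peaks against 9689 to 22926 for the other 6. hnRNPU, prepared in the same way as SAFB and SAFB2, had 10279 peaks for its 37 regions. Overexpressed PSPC1 had 22785 peaks and 16 regions, CIRH1A 9689 and 9, and UTP3 14562 and 14. The knock-in libraries had 18455 and 22926 peaks, with 13 and 18 regions. The part of list length in these counts was not tested.

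The boundary of the selection was narrow for some regions. Just inside it, chrX:21443209-21446522 (mm9) lay 1 bp from a UTP6 peak, chr4:132657508-132659058 lay 6 bp from an hnRNPU peak and chr3:93727044-93731728 lay 7 bp from a UTP6 peak. Their SAFB scores were 128.79, 90.07 and 118.01 and their SAFB2 scores 120.12, 84.21 and 70.18. Just outside it, the region chr9:117916052-117920505 was dropped for 2 overlapping bases of a UTP6 peak, chr2:84035052-84037669 for 7 and chr10:53863413-53868812 for 8, again of UTP6 peaks. Their SAFB scores were 146.78, 132.22 and 125.9 and their SAFB2 scores 113.08, 53.7 and 111.59. Of the SAFB scores, 2 of the 3 outside were above all 3 inside, and the SAFB2 scores overlapped.

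At nearly all sites the paralogs met as single peaks. One peak of each protein made up 1902 of the 1962 sites (96.9%), and 20 sites held 2 SAFB peaks, 45 held 2 SAFB2 peaks and 5 of these held 2 of each. The peaks did not coincide exactly, since no site had the same start and end in both lists, which allows a share of up to 0.195% by the Wilson interval. Their midpoints lay a median of 215 bp apart, with quartiles at 82 and 501.75 bp. The overlap had a median of 1138.5 bp (95% interval 1108 to 1162) and ranged from 7 to 5826 bp. In 1451 sites (74.0%) the overlap covered at least 50% of both peaks, and 6 sites overlapped by less than 100 bp.

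SAFB had the wider peaks, as in the whole lists, where the median peak was 1699 bp for SAFB and 1275 bp for SAFB2. The median SAFB peak in these sites was 1932.5 bp wide (1860 to 2009) and the median SAFB2 peak 1222.5 bp (1185 to 1265). SAFB had the wider peak at 1664 sites (84.8%, 83.2 to 86.3), with a median width ratio of 1.41. The SAFB2 peak lay wholly within the SAFB peak at 1126 sites (57.4%), and the reverse held at 100 (5.10%). At the median site, SAFB2 covered 67.2% of the SAFB peak, whereas the SAFB2 peak was covered completely. Across the sites the widths of both proteins had a Spearman correlation of 0.67 (n = 1962 sites, which share their libraries and fixation), and the scores had one of 0.36. The regions shared with other proteins had much the same geometry, with a width ratio of 1.34 and a coverage of SAFB by SAFB2 of 68.7% at the median.

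**Figure D1:**
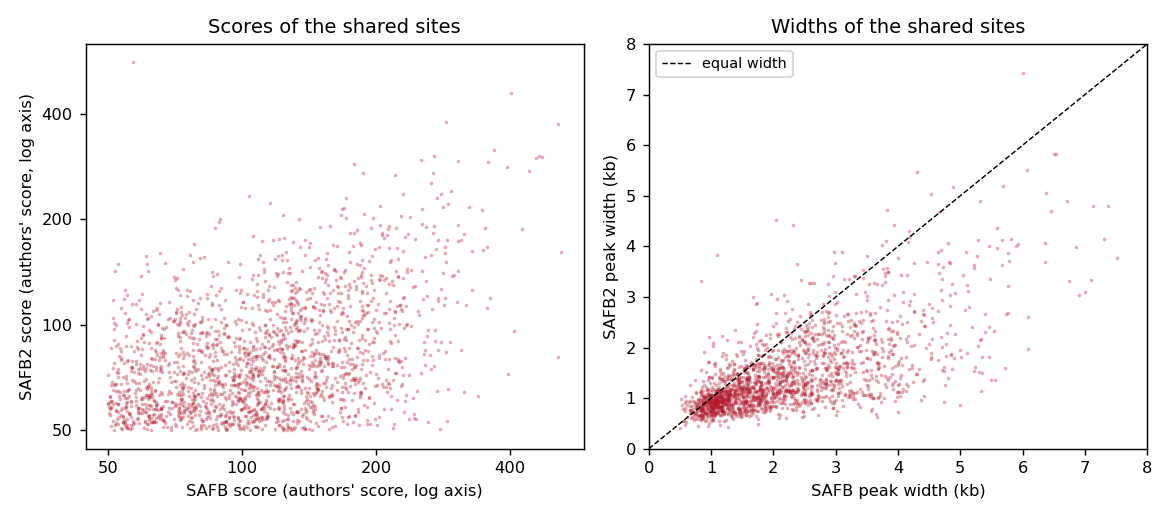
Each point is 1 of the 1962 sites; the left panel plots its SAFB score against its SAFB2 score (the authors' score, no stated unit, log axes) and the right panel the widths of its SAFB and SAFB2 peaks in kb, with a dashed line at equal width. Most points lie under the line of equal width (84.8% of sites), and the scores are spread widely around a loose positive trend.

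The whole region, from the outermost start to the outermost end, had a median width of 2056 bp (1986 to 2118), quartiles of 1388 and 2999 bp and a range of 499 to 7638 bp. SAFB-only regions were narrower, at 1373 bp (1336 to 1408), and SAFB2-only regions narrower still, at 1046.5 bp (1008 to 1088). Regions of both paralogs with other lists were wider, at 2851 bp (2749 to 2968). A region made of more peaks is wider by construction, and a wider peak is more likely to meet a peak of another list, so the selection bears on both region and peak width. The SAFB peak alone was 1932.5 bp wide in the shared sites against 1373 bp in SAFB-only regions, and the SAFB2 peak was 1222.5 bp against 1046.5 bp.

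Over all 1962 sites, width and score had a Spearman correlation of 0.20 for the SAFB peak and 0.32 for the SAFB2 peak. The 3 widest sites were chr6:90380343-90387980 (7638 bp), chr11:82616297-82623806 (7510 bp) and chr12:19865783-19873237 (7455 bp). Their SAFB scores of 73.21, 51.86 and 72.67 were all below the median of the sites. Their SAFB2 scores were 66.06, 142.71 and 89.69, the first below and the others above the median. A total of 75 sites (3.82%) reached 5000 bp.

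The deposited score, which ranks peaks within a list, was higher in the shared sites than in the sites of either paralog alone. The median SAFB score was 110.5 (107.7 to 113.5) in the shared sites and 70.8 (69.9 to 71.7) in SAFB-only regions. It was 89.2 (86.3 to 92.7) where other lists joined. The median SAFB2 score was 75.6 (74.1 to 77.2) in the shared sites, 59.2 (58.3 to 60.1) in SAFB2-only regions and 74.2 (72.8 to 75.8) where other lists joined. Between the sites and the regions joined by other lists, the intervals of the SAFB2 score overlapped and those of the SAFB score did not.

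Grouping each list by its own score showed how the sites were spread over it. Of the SAFB peaks in the lowest score decile, 5.64% lay in a shared site, and in the highest decile 50.9% did. For SAFB2 the share went from 16.8% in the lowest decile to 50.2% in the highest. The share in regions of both paralogs with other lists rose too, from 7.80% to 26.9% for SAFB and from 16.2% to 40.2% for SAFB2. The highest-scoring quartile of the SAFB list held 1055 of the 1962 sites (53.8%, 51.6 to 56.0), and that of the SAFB2 list held 732 (37.3%, 35.2 to 39.5). The SAFB list is longer, with 10632 peaks against 6670, so its quartile holds more peaks and these shares are not directly comparable. Both peaks were in their list's highest quartile at 513 sites (26.1%). Both were below the median of their list at 234 sites (11.9%).

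**Figure D2:**
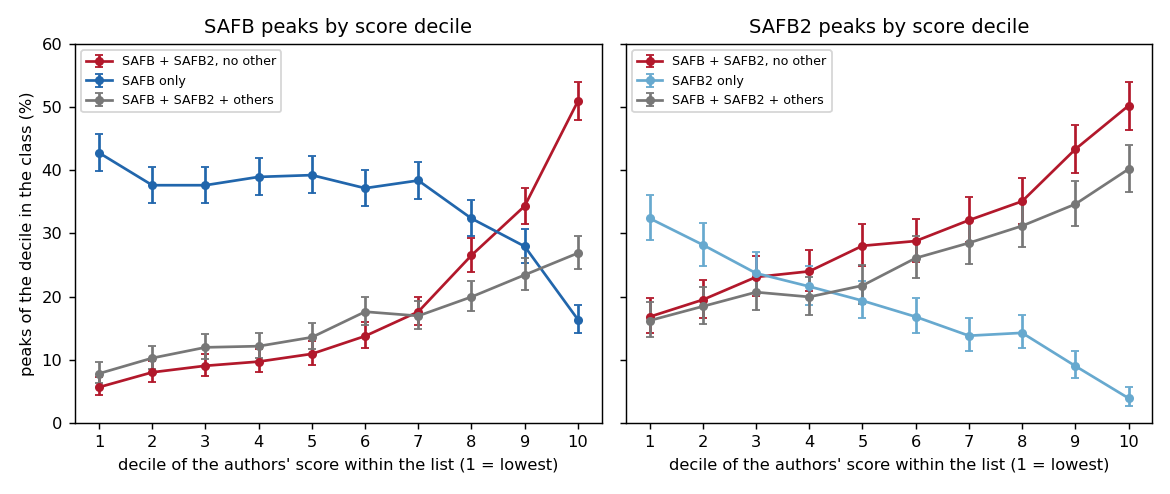
Share of peaks in each class (percent, y axis) by decile of the authors' score within the SAFB list (left) and the SAFB2 list (right), with Wilson 95% intervals as bars. The share of peaks in the shared sites goes from 5.64% to 50.9% across the SAFB deciles and from 16.8% to 50.2% across the SAFB2 deciles. Peaks in regions of both paralogs with other lists also become more frequent, while peaks of 1 paralog alone become less frequent.

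The very highest scores lay elsewhere. No shared site exceeded 521.88 for SAFB or 560.67 for SAFB2, while regions shared with other lists reached 3100 in both. The site with the best mean rank over both lists was chr13:84340604-84341580, with a SAFB score of 513.86 (rank 35 in its list) and a SAFB2 score of 374.2 (rank 50). The next was chr8:40972586-40973588, with scores of 402.77 and 458.37 and ranks 50 and 38. The site chr16:86568204-86569280 followed with scores of 465.99 and 303.69, then a site on chrUn_random with 471.42 and 300.62, and chr17:40416510-40417800 with 456.74 and 300.16. These 5 regions were 977 to 1854 bp wide, all narrower than the median site. They lay 19.8 to 156 kb from the nearest peak of another protein, all farther than the median site.

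On chromosome X the sites were denser than on any autosome. Chromosome X held 206 of the 1962 sites, or 10.5% (9.22 to 11.9), at 1.24 sites per Mb. Over the 19 autosomes the density had a median of 0.689 per Mb and ranged from 0.320 on chromosome 11 to 0.922 on chromosome 3. Chromosomes 4 (0.900 per Mb) and 16 (0.865 per Mb) followed chromosome 3. Against all autosomes together, the density on X was 1.79 times as high. The ratio was 1.45 for SAFB-only regions, 0.917 for SAFB2-only regions and 0.931 for regions of both paralogs with other lists. SAFB-only regions were likewise denser on X than on any autosome, at 1.94 per Mb against 1.06 to 1.66. The X share was 8.72% (7.85 to 9.67) for SAFB-only, 5.74% (4.57 to 7.19) for SAFB2-only and 5.79% (4.773 to 7.004) for the regions with other lists. The intervals of the shared sites and the SAFB-only regions overlapped.

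**Figure D3:**
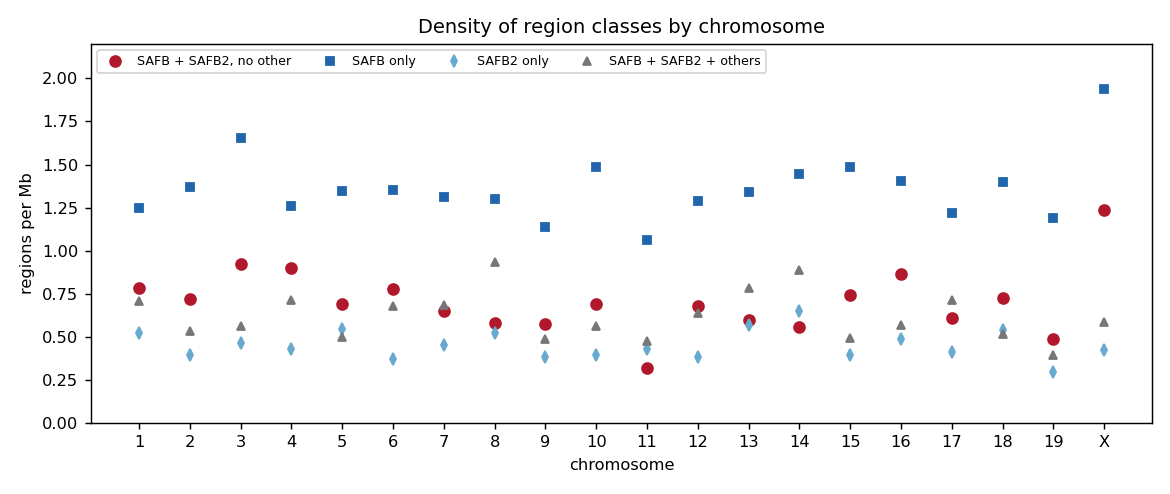
Regions per Mb (y axis) on chromosomes 1 to 19 and X for the 4 classes, 1 point for each class and chromosome. The shared sites (red circles) stand at 1.24 per Mb on X, above their highest autosome at 0.922, and are sparsest on chromosome 11 at 0.320.

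The other proteins had few peaks on this chromosome. Regions with any of the other 7 lists numbered 7.64 per Mb on X and 23.7 per Mb on the autosomes, and 2.10% of them (1.99 to 2.22) were on X. Regions with both paralogs, whether or not other lists joined, stood at 1.82 per Mb on X and 1.32 per Mb on the autosomes. Of those on X, 67.8% (62.3 to 72.8) had no other list, against 52.2% (50.5 to 54.0) on the autosomes. The density of the sites is the product of these quantities, and both were higher on X. Chromosomes 8 (38.2%), 14 (38.7%) and 11 (40.2%) had the lowest shares with no other list. Over the 20 chromosomes, the density of the sites and that of regions with other lists had a Spearman correlation of -0.47, a description over points that share the same libraries.

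Sites on X did not stand out in score. Their median SAFB score was 118.1 (107.2 to 131.1) against 109.1 (106.8 to 112.8) on the autosomes, and their median SAFB2 score 79.4 (73.8 to 83.8) against 75.2 (73.7 to 76.7), with overlapping intervals in both cases. Their median width was 1841.5 bp (1712 to 2056) on X and 2107.5 bp (2041 to 2184) on the autosomes. They lay farther from other proteins, at a median of 17.7 kb (3.72 to 35.3) against 6.85 kb (5.15 to 8.71), though these intervals also overlapped. A further 48 sites (2.45%) lay outside chromosomes 1 to 19 and X, and 38 of them were on chrY_random, where the assembly is repetitive and unplaced and positions are uncertain.

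Along the chromosomes the sites were scattered, with mild clustering. In 1 Mb bins of chromosomes 1 to 19 and X, 1914 sites fell into 1214 of 2648 bins (45.8%). A single site stood in 737 of these bins, 2 sites in 320 and 3 or more in 157. The variance of the count per bin was 1.34 times its mean, against 1.37 for SAFB-only, 1.10 for SAFB2-only and 1.71 for regions with other lists. The ratio can rise with the mean, which was 0.723, 1.37, 0.454 and 0.627 per bin in the same order, so it does not rank the classes by clustering. The fullest 265 bins held 753 sites (39.3%, 37.2 to 41.5), a share that depends on how many sites there are to place. On chromosome X 113 of 167 bins were occupied (67.7%), while on chromosome 11 25.4% were.

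No bin held more than 6 sites, and 5 bins reached that number. They were the bins beginning at 95 Mb on chromosome 2, 14 Mb on chromosome 7, 20 Mb on chromosome 13, 63 Mb on chromosome 16 and 123 Mb on chromosome X. Each also held 5 to 19 regions of the other lists and at most 2 regions where both paralogs met other proteins. The longest unbroken run of occupied bins was on chromosome 5, from 6 to 19 Mb, with 23 sites in 13 bins. Next came chromosome X from 59 to 71 Mb, with 24 sites in 12 bins.

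Close groups of sites were uncommon. The nearest other site lay a median of 336 kb away (313 to 363), with 373 sites (19.01%) within 100 kb of another and 71 within 10 kb. The share within 100 kb of another region of the same class was 33.4% for SAFB-only, 11.8% for SAFB2-only and 23.8% for regions with other lists. Such shares depend on how many regions a class holds. Joined at gaps of up to 100 kb, the sites formed 156 pairs, 19 groups of 3 and 1 group of 4, while 1589 stood alone. The group of 4 spanned 207 kb at chr13:20763720-20971173, within one of the fullest bins. The nearest SAFB-only region was a median of 183 kb away (171 to 195). The nearest SAFB2-only region was 689 kb away (637 to 737). SAFB-only regions were also more numerous, 3704 against 1220, and the part of this in the distances was not tested.

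The sites were found mostly in stretches with few peaks of other proteins. With the 2648 bins sorted by their number of regions with other lists into 4 equal groups, the groups from fewest to most held 32.5%, 36.9%, 19.2% and 11.3% of the sites. The regions in which both paralogs met other proteins had the opposite order, 13.3%, 25.1%, 25.9% and 35.7%. The selection bears on that contrast, since it removes sites where other peaks are dense, and removes wide regions more readily than narrow ones. Its part was not tested. The regions of both paralogs with other lists are also themselves counted among the regions that sort the bins. That part was not tested either. SAFB-only and SAFB2-only regions, which are narrower, had 18.1% and 25.0% in the group with the most other regions, against 11.3% (9.99 to 12.8) for the shared sites. Over the bins, the number of sites and the number of regions with other lists had a Spearman correlation of -0.28 (n = 2648 bins of the same libraries), and of -0.27 over the 2481 autosomal bins. It was -0.12 for SAFB-only, 0.05 for SAFB2-only and 0.17 for regions of both paralogs with other lists, which are counted on both sides. With every peak set to a window of 500 bp around its midpoint, it was -0.23 for the shared sites, -0.08 for SAFB-only and 0.01 for SAFB2-only. The 69 bins with no region of the other lists held no shared site, no SAFB2-only region and 1 SAFB-only region. They were nearly empty for every class and do not tell the classes apart.

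**Figure D4:**
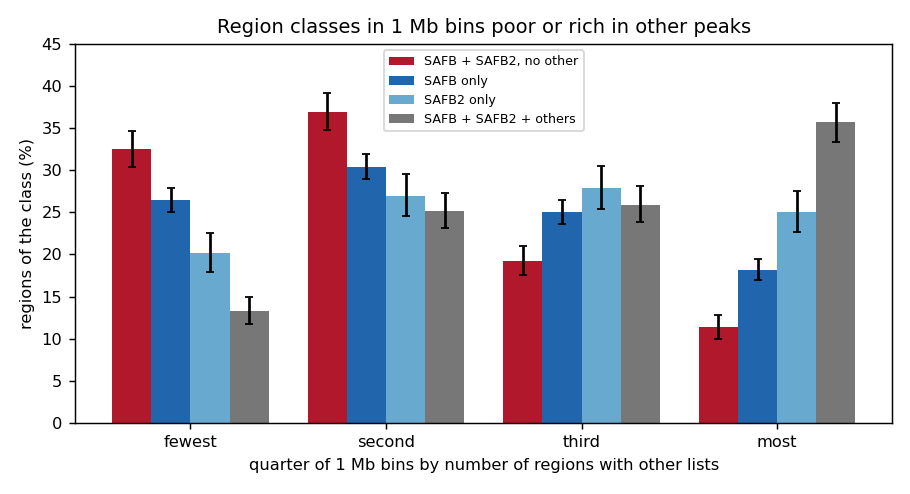
Share of each class (percent, y axis) in 4 equal groups of 1 Mb bins ordered by how many regions with other lists they hold (x axis), with Wilson 95% intervals. The shared sites go from 32.5% and 36.9% in the bins with fewer to 11.3% in those with the most. The regions of both paralogs with other lists, themselves counted in sorting the bins, go from 13.3% to 35.7%.

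The distance from a site to the nearest peak of any other list, edge to edge, had a median of 7.55 kb (6.02 to 9.40) and quartiles of 1.27 and 51.1 kb. Within 1 kb lay 408 sites (20.8%, 19.1 to 22.6), within 10 kb 52.7% and within 100 kb 86.7%, which left 260 sites (13.3%, 11.8 to 14.8) farther than 100 kb. On a log scale the distances had a peak at each end of a dip. The interval from 1 to 3.16 kb held 20.3% of the sites and that from 31.6 to 100 kb held 20.0%, while 11.6% fell between 3.16 and 10 kb. SAFB-only regions had a shallower dip, with 15.7% in that middle interval, and SAFB2-only regions had their highest share there, 24.9%.

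The extremes of the distance were therefore filled more by the shared sites than by those of 1 paralog. Within 1 kb lay 15.6% (14.4 to 16.8) of SAFB-only and 11.4% (9.74 to 13.3) of SAFB2-only regions, and farther than 100 kb lay 10.8% (9.80 to 11.8) and 7.55% (6.19 to 9.17). The shared sites were also wider than both classes, and a wide region lies closer to its neighbours by its edges alone. The part of width in the shares within 1 kb was not tested. The medians, 9.02 kb (7.96 to 9.97) for SAFB-only and 7.62 kb (6.32 to 8.82) for SAFB2-only, overlapped that of the shared sites. The order of these medians turned with the processing: with only the highest-scoring 6670 peaks of each list, the shared sites were the farthest, at 65.1 kb against 51.9 kb for SAFB-only and 34.6 kb for SAFB2-only. Without the UTP6 list, an alternative added after the data were seen, the medians were 22.1, 17.2 and 14.5 kb in the same order.

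**Figure D5:**
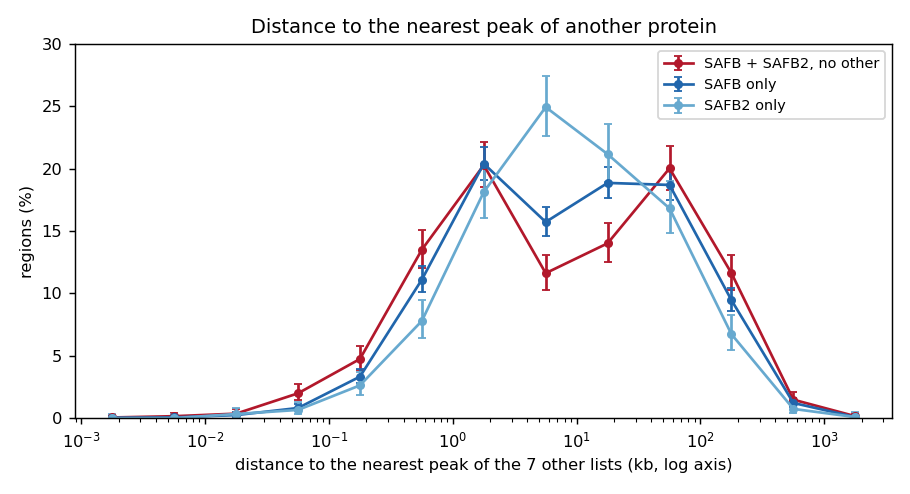
Share of regions (percent, y axis, with Wilson 95% intervals) by distance to the nearest peak of the 7 other lists (kb, log axis) for the shared sites, SAFB-only and SAFB2-only regions. The shared sites have 1 maximum between 1 and 3.16 kb (20.3%) and another between 31.6 and 100 kb (20.0%), with 11.6% between 3.16 and 10 kb.

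List by list, UTP6 was the closest neighbour. The median distance to a UTP6 peak was 12.8 kb (10.9 to 15.7). It was 73.1 kb to UTP3, 87.7 kb to overexpressed PSPC1 and 135 kb to hnRNPU, the scaffold attachment factor prepared in the same way as SAFB and SAFB2. It was 205 kb to CIRH1A, and 211 and 183 kb to knock-in PSPC1 of replicates 1 and 2. UTP6 gave the nearest peak for 1226 sites (62.5%), whereas it made up 29.0% of the peaks in the 7 lists. This share is given for the sites only. The median distance to UTP6 was 14.3 kb (13.1 to 15.5) from SAFB-only and 11.8 kb (9.87 to 14.4) from SAFB2-only regions. Both intervals overlapped that of the shared sites. For the other 6 lists the median distance was longer from the shared sites than from SAFB-only and SAFB2-only regions. For UTP3 the interval of the shared sites, 63.5 to 81.4 kb, overlapped that of SAFB-only regions, 58.1 to 67.6 kb. For hnRNPU the median distance was 135 kb (124 to 146) against 100 kb (92.7 to 108) and 80.8 kb (69.6 to 90.1).

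Sites near and far from other proteins differed in width more than in score. The 408 sites within 1 kb had a median width of 2754.5 bp (2639 to 2890), and the 260 sites beyond 100 kb one of 1482 bp (1354 to 1588). A wide region lies closer to its neighbours by its edges alone, and the part of this in the difference was not tested. The median SAFB score was 119.9 (112.8 to 123.9) within 1 kb, 98.3 (92.1 to 102.9) from 1 to 10 kb, 114.2 (108.5 to 120.7) from 10 to 100 kb and 126.0 (116.9 to 135.5) beyond. The median SAFB2 score varied from 73.4 to 78.4 over the same groups, with overlapping intervals. Chromosome X held 8.09% (5.82 to 11.1) of the sites within 1 kb and 16.2% (12.2 to 21.1) of those beyond 100 kb. The classes of 1 paralog had the same order. SAFB-only regions had a median width of 2112.5 bp within 1 kb and 1007 bp beyond 100 kb, and SAFB2-only regions 1194 and 848 bp. Their X shares were 9.20% and 12.6% for SAFB-only and 5.76% and 12.0% for SAFB2-only, with overlapping intervals in each class. The median SAFB score of SAFB-only regions was likewise lowest from 1 to 10 kb, at 66.6.

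Of the 408 sites within 1 kb of another protein, 363 were within 1 kb of UTP6, 213 of UTP3, 102 of hnRNPU, 91 of overexpressed PSPC1 and 70 of CIRH1A. Knock-in PSPC1 came within 1 kb of 35 of them in replicate 1 and 51 in replicate 2. Several lists met at many of these flanks, with 132 sites near 2 lists and 139 near 3 or more. UTP6 was also the most frequent near list in the classes of 1 paralog. Of 576 SAFB-only regions within 1 kb of another protein, 479 were near UTP6, 262 near UTP3 and 146 near hnRNPU. Of 139 such SAFB2-only regions, 104 were near UTP6, 46 near UTP3 and 23 near hnRNPU. At the other end, the 3 most distant sites were all on chrY_random, 1329 to 1848 kb from any other list. The most distant of them, 816 bp wide, had a SAFB score of 100.59 and a SAFB2 score of 116.51.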

How the data were processed

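ChIP-seq peaks of 9 libraries were analysed, 1 library for each protein and 2 for knock-in PSPC1. Per the submitters' processing notes, the build is mm9 and the tools named are CASAVA, Bowtie2 and TopHat. MACS is named in the deposited peak names. Its version, threshold and control, and the read filters, are not given in the sources used here. The deposited score of each peak has no stated unit, and the lowest score is 30 in the knock-in lists and about 50 in the others. It was used to describe and rank peaks within a list. Sequencing depth is unknown.

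Peaks sharing at least 1 bp were merged with pandas 2.3.3 and numpy 2.4.6. Shares have Wilson 95% intervals (scipy 1.17.1) and medians have order-statistic 95% intervals. The largest peak end stood in for chromosome length. Coordinates are mm9, counted from 1. The procedure was tested on simulated lists, where it recovered 2459 of 2459 planted sites. The sites, classes and comparisons were chosen with earlier results of these data known. The named regions are the 5 with the best mean score rank, the 3 widest, the 5 fullest 1 Mb bins, the 3 nearest to another list, the 3 dropped for the fewest overlapping bases and the 3 farthest. No test was run, since each SAFB protein has 1 library and the peak calls selected the sites. Alternatives changed the overlap rule, the score limits, the bins, the distance and the lists used. Gene annotation and genome sequence of mm9 were not used here, and the other 49 of the 58 samples, a SAFB input library among them, were not analysed here.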

Additional observations from a re-analysis of the deposited data

How the results depend on the processing

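Of 74 values computed under alternatives, 52 stayed within 1.5 times the main count or inside the main interval, 16 were higher and 6 were lower. With the highest-scoring 50% of each list, there were 1165 sites, with a median width of 2280 bp, median scores of 134.6 (SAFB) and 94.0 (SAFB2), 49.1% in the fullest 10% of bins and a median distance of 39.7 kb. When each list was cut down to its best 6670 peaks by score, the width was 2253.5 bp, the SAFB score 120.0 and the distance 65.1 kb. With a reciprocal overlap of 50%, the width was 1745 bp, the scores 106.1 and 79.3, and the share in those bins 45.2%. With windows of 500 bp around the midpoints, the width was 645 bp, that share 42.5% and the distance 5.16 kb. Merging peaks up to 1 kb apart gave 43.6% and 23.0 kb. The fullest 10% held 32.9% in bins of 2 Mb and 50.5% in bins of 500 kb. The distance between midpoints was 9.46 kb, and without the UTP6 list, an alternative chosen after seeing the data, the distance was 22.1 kb. The X share stayed between 9.54% and 10.9% under all alternatives run. Under the 6 that kept the classes, the shared sites always had a higher X share and a higher SAFB score than SAFB-only regions. They also had the most negative correlation with other lists per bin of the 4 classes. The regions of both paralogs with other lists are counted on both sides of their correlation. With the highest-scoring 50% of each list, the X share was 10.1% against 9.70% for SAFB-only regions. The correlation there was -0.202 against -0.195, so both differences were small under that setting. Leaving out either knock-in PSPC1 replicate gave 1977 and 1983 sites and distances of 7.69 and 8.38 kb. No paired analysis was possible because knock-in PSPC1 is the only group with more than 1 peak list and no test was run.

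The depth and threshold of each library are unknown, so a region without a peak of another protein is a region without a call, and signal below that list's threshold was not measured. Membership moves with the lists used: without the UTP6 list there were 2149 sites.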
